A study of Mus musculus with 12 samples.

Results

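The Cyp3a family of the mouse was followed in hepatocytes and mesenchymal cells of livers exposed to phenobarbital. The members were the probe sets of the array whose platform annotation gives Cyp3a11, Cyp3a13, Cyp3a16 or Cyp3a25 as the only gene symbol. This rule found 4 probe sets, 1 for each of the 4 genes, among 12393 genes that had a probe set with 1 symbol. The RefSeq table of the GRCm38.p6 assembly lists 9 protein-coding Cyp3a genes and 4 pseudogenes, all on chromosome 5. Cyp3a genes are close in sequence, so signal from a relative can reach a member's probe set, which was not tested.

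CYP3A enzymes are haem-containing monooxygenases of the endoplasmic reticulum that oxidise steroids, bile acids and a large share of drugs. They receive electrons from cytochrome P450 oxidoreductase, and their genes are classical targets of the nuclear receptors PXR (Nr1i2) and CAR (Nr1i3), which pair with RXR and respond to foreign compounds. In liver, basal expression lies mainly in hepatocytes and depends on hepatocyte transcription factors such as HNF4A. Cyp3a11 is the major form of the adult mouse liver and the usual counterpart of human CYP3A4. Cyp3a25 is also expressed in adult liver and intestine, Cyp3a13 is known from liver and intestinal epithelium, and Cyp3a16 is known from fetal and neonatal liver.

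The study asked how phenobarbital acts on different cells of the liver. Male C57BL/6N mice, 12 weeks old, drank phenobarbital at 50 mg/kg per day for 14 days, while time-matched controls drank tap water. Hepatocytes and a fraction called mesenchymal cells were profiled, with 3 arrays in each of 4 groups: hepatocytes after water, hepatocytes after phenobarbital, mesenchymal cells after water and mesenchymal cells after phenobarbital. Phenobarbital is a barbiturate that activates CAR and is widely used to induce drug-metabolising enzymes. No genetic change was made in any group. The labels do not say how the cells were isolated, how many animals gave each sample or whether animals were pooled, so p-values here speak to the scatter among these arrays, which may be technical.

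The deposited values are log2 expression from RMA, which sets the probe intensities of the arrays to a common distribution. The array medians of the resulting probe set values still ran from 7.19 to 7.44. Arrays of 1 group correlated at r of 0.989 to 0.996 over 22626 probe sets, against 0.731 to 0.783 between the populations. The mesenchymal fraction carried markers of macrophages and sinusoidal endothelium, with array means of 13.60 to 14.03 for 12 Kupffer cell and macrophage markers and 12.27 to 12.80 for 13 sinusoidal endothelial markers. In hepatocytes these means were 5.91 to 6.53 and 6.02 to 6.57. The 10 measured stellate cell and fibroblast markers had means of 7.52 to 8.19 in the mesenchymal arrays and 5.74 to 5.95 in hepatocytes. The name mesenchymal is kept as the label of the fraction, which carried markers of several cell types. The array means of 15 measured hepatocyte markers were 13.86 to 13.97 in hepatocytes and 9.13 to 10.94 in the mesenchymal arrays. Both water arrays numbered 1 stood apart in clock genes: Dbp, a circadian transcription factor, was at 6.21 in hepatocytes and 6.52 in mesenchymal cells, against 11.60 to 12.15 in the other hepatocyte arrays and 11.65 to 12.15 in the other mesenchymal arrays.

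The 4 promoters are shown because nuclear receptors and HNF4A act through short elements that can be looked for directly, and because they show how alike the members are upstream of the gene. Each window runs from 250 bases before to 50 bases after the annotated start, is read 5′ to 3′ on the minus strand, and comes from RefSeq on GRCm38.p6, an assembly of a C57BL/6J mouse. Capitals mark exact matches, on either strand, to a nuclear receptor half-site (AGGTCA or AGTTCA), the HNF4-type element CAAAGTCCA, or the TATA-like boxes TATAAA and CATATAA. The windows lie at chr5:145879805-145880104 (Cyp3a11), chr5:146009569-146009868 (Cyp3a25), chr5:137921570-137921869 (Cyp3a13) and chr5:145469674-145469973 (Cyp3a16). For Cyp3a25 the table holds 2 entries with starts 1 base apart, and the first was used.
Cyp3a11: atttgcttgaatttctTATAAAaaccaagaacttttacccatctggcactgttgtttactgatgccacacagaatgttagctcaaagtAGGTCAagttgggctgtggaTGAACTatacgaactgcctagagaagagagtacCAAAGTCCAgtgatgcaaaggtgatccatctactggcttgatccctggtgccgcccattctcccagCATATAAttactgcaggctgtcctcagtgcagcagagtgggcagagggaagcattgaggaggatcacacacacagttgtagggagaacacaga
Cyp3a25: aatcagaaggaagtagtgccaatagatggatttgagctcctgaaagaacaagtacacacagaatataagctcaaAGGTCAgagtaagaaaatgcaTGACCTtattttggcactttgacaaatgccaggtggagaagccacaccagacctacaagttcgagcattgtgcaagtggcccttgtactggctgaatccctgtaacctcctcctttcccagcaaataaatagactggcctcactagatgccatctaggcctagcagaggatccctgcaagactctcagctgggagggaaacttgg
Cyp3a13: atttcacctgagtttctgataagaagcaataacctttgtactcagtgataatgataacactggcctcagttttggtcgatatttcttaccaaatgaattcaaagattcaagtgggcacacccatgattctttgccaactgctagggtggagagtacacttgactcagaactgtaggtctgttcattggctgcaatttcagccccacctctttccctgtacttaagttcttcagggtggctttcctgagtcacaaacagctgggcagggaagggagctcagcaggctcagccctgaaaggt
Cyp3a16: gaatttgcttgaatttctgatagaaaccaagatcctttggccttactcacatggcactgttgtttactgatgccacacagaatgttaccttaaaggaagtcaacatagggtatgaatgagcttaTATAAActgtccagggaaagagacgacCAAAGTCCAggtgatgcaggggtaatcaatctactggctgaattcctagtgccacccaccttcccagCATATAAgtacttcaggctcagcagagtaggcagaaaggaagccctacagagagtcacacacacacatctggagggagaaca

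Cyp3a11 and Cyp3a16 shared an arrangement that the windows of Cyp3a25 and Cyp3a13 did not have. How many other promoters hold both elements was not counted. Counting from the start, the Cyp3a11 window held CAAAGTCCA at −109 to −101 and CATATAA at −43 to −37. The Cyp3a16 window held the same letters at −99 to −91 and −32 to −26. CAAAGTCCA occurred in 129 of 27025 promoters of this length (0.477%) and CATATAA in 2.35%. Over a global alignment the Cyp3a11 and Cyp3a16 windows were identical in 75.2% of alignment columns, while the other 5 pairs ranged from 52.7% to 58.1%. For comparison, each member was aligned with 1692 promoters of chromosome 5 outside the Cyp3a family. The highest identity was 54.5% for Cyp3a11, 55.0% for Cyp3a25, 55.4% for Cyp3a13 and 56.9% for Cyp3a16, with medians of 49.0% to 49.6%. Cyp3a promoters other than those of the members were not aligned.

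Nuclear receptor half-sites were present in 2 members. Cyp3a11 had AGGTCA at −162 to −157 and TGAACT, the reverse complement of AGTTCA, at −142 to −137. Cyp3a25 had AGGTCA at −176 to −171 and TGACCT, its reverse complement, at −155 to −150. Such single half-sites are common: AGGTCA occurred in 16.0% and AGTTCA in 14.0% of all promoters. TATAAA stood at −234 to −229 in Cyp3a11 and −126 to −121 in Cyp3a16, and occurred in 14.2% of promoters.

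Paired half-sites, the form that PXR, CAR and their partner RXR are known to bind, were searched as direct repeats of AGGTCA or AGTTCA in any combination with 1, 3, 4 or 5 bases between them and as everted repeats with 6 bases between them. No member window held one. These pairs were rare everywhere, in 0.0851%, 0.0111%, 0.0259%, 0.0407% and 0.0111% of promoters in that order. The D-box of PAR bZIP factors (TTATGTAA or TTACGTAA, 1.06% of promoters) and the E-box CACGTG of the clock (7.24%) had no match in the members either. The half-sites are part of every paired form searched, and no matches of different motifs overlapped in the members. The absence of a match says only that these letters are not in these 300 bases.

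**Figure D1:**
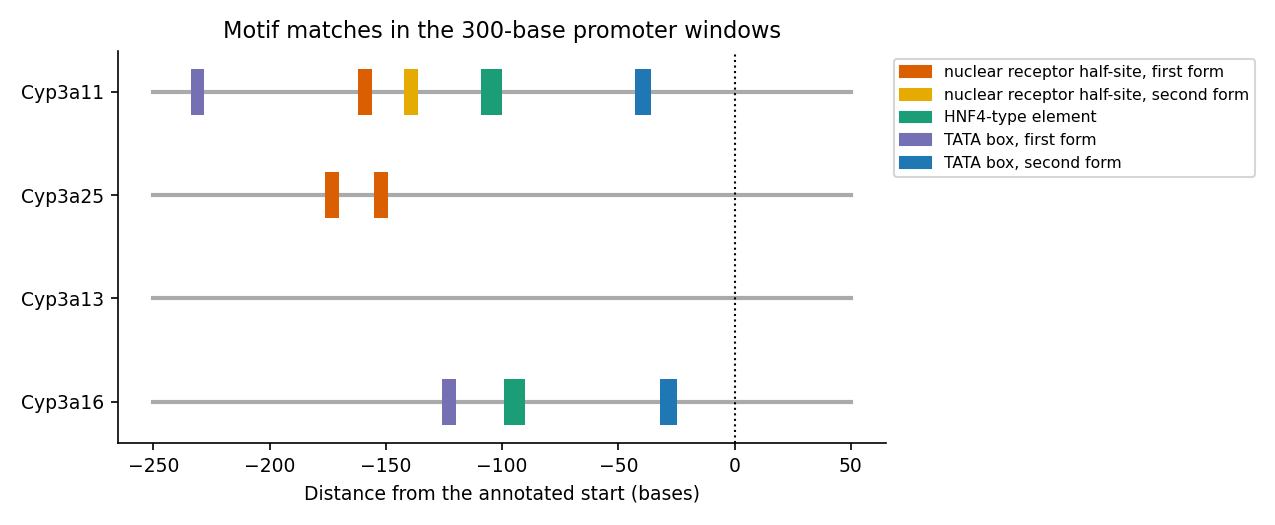
Positions of the motif matches in the 4 promoter windows, in bases from the annotated start (dotted line). The HNF4-type element at −109 and the second TATA form at −43 in Cyp3a11 have counterparts at −99 and −32 in Cyp3a16, Cyp3a25 has 2 half-sites, and the Cyp3a13 line is empty.

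Levels of the members differed between the populations far more than between treatments. For Cyp3a11, Cyp3a25 and Cyp3a13 the order of the group means was hepatocytes after phenobarbital, hepatocytes after water, mesenchymal cells after phenobarbital and mesenchymal cells after water. In each of these genes the first pair and the last pair overlapped, and every hepatocyte array lay above every mesenchymal array. Such a gap in this direction was seen in 39.8% of probe sets tested in water mice and 40.6% in phenobarbital mice. Cyp3a16 stayed near the floor of the arrays in all 4 groups, and all its groups overlapped. Levels of different probe sets are not compared with each other, because probe sets differ in their response to RNA.

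**Figure D2:**
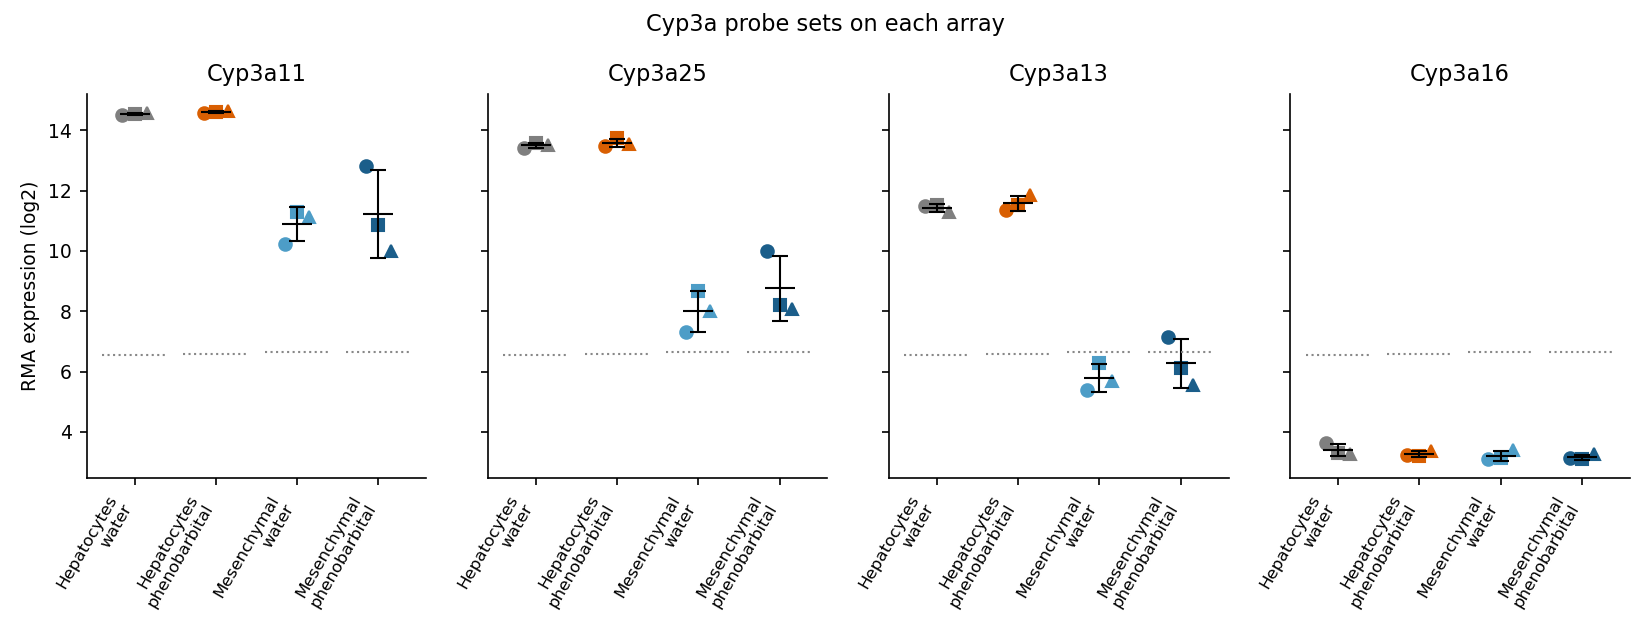
RMA expression (log2) of the 4 Cyp3a probe sets on each array, by group, with the mean and SD of 3 arrays as black bars and the arrays 1, 2 and 3 as circles, squares and triangles. The dotted lines mark the mean 40th percentile of the arrays of a group, between 6.54 and 6.68 on single arrays, and Cyp3a16 lies below it on all 12 arrays.

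None of the 3 testable Cyp3a genes passed the test for phenobarbital against water in hepatocytes, and the differences were small. Cyp3a11 differed by 0.07 on the log2 scale (1.05-fold), Cyp3a25 by 0.09 (1.06-fold) and Cyp3a13 by 0.15 (1.11-fold), and the upper ends of the 95% intervals lay at 1.13-fold, 1.21-fold and 1.37-fold. Cyp2b10, the classical CAR target, differed by 5.52 on the same arrays. In limma, 0 of the 3 members passed at an adjusted p under 0.05, and 0 of the 3 had an unadjusted p under 0.05. Of the 13705 probe sets tested in hepatocytes, 8 passed (0.0584%) and 1101 had an unadjusted p under 0.05.

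Cyp3a11 was at 14.50, 14.54 and 14.59 in the hepatocytes of water mice and at 14.59, 14.62 and 14.64 after phenobarbital. All 6 arrays lay within 0.14 of each other, and the highest water array met the lowest phenobarbital array. The group means were 14.54 ± 0.04 (SD, n = 3) and 14.62 ± 0.03 (SD, n = 3), and the phenobarbital array was the higher in 8 of 9 pairs. The difference was 0.07 with a standard error of 0.05, a 95% interval of −0.04 to 0.18 and a limma adjusted p of 0.714. As a ratio the interval ran from 0.974 to 1.13. Only 16 to 24 of the other probe sets on a hepatocyte array were brighter than Cyp3a11, so it sat at the top of the arrays' range, where signals are known to be compressed and a change in RNA can be understated. Whether this touched the difference was not tested.

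Cyp3a25 was at 13.41, 13.56 and 13.53 after water and at 13.48, 13.74 and 13.55 after phenobarbital. The groups overlapped, with 1 phenobarbital array above all water arrays by more than their own range and the other two inside it. Group means were 13.50 ± 0.08 (SD, n = 3) and 13.59 ± 0.13 (SD, n = 3). The difference of 0.09 had a standard error of 0.08, an interval of −0.10 to 0.28 and a limma adjusted p of 0.780.

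Cyp3a13 was at 11.47, 11.52 and 11.28 after water and at 11.36, 11.52 and 11.85 after phenobarbital. The third phenobarbital array was the highest of the 6, and the other phenobarbital arrays lay within the water group's range. Group means were 11.43 ± 0.13 (SD, n = 3) and 11.58 ± 0.25 (SD, n = 3). The difference of 0.15 had a standard error of 0.13, an interval of −0.15 to 0.46 and a limma adjusted p of 0.772.

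Cyp3a16 was at 3.64, 3.29 and 3.28 after water and at 3.23, 3.20 and 3.37 after phenobarbital. The arrays were mixed, and on every one of the 12 arrays only 22 to 398 other probe sets read lower (0.0972% to 1.76%). A probe set above the 40th percentile of its array in at least 3 arrays of a fit entered the tests, and Cyp3a16 never did. Its hepatocyte means were 3.40 ± 0.21 (SD, n = 3) and 3.27 ± 0.09 (SD, n = 3). With all probe sets tested, the difference of −0.13 had a limma adjusted p of 0.822.

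Other probe sets of the family read low as well. Cyp3a44, known as a female-predominant form, had hepatocyte means of 5.28 after water and 5.45 after phenobarbital. A probe set annotated with 2 Cyp3a symbols, which names no single gene, had means of 5.90 and 6.04. Neither was above the 40th percentile on any array.

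Cyp3a11 was lowest on the water array numbered 1, the array with low Dbp. Without it the hepatocyte differences were 0.05 for Cyp3a11, 0.05 for Cyp3a25 and 0.18 for Cyp3a13, and none passed. Other single arrays moved the values more: Cyp3a13 was at 0.016 without phenobarbital array 3 and at 0.26 without phenobarbital array 1, and Cyp3a25 was at 0.016 without phenobarbital array 2. Over all arrays left out in turn Cyp3a11 ran from 0.05 to 0.09, and no member passed. Nr1i3, which encodes CAR, was also lowest on that array, at 7.98 against 8.43 to 9.57 on the other hepatocyte arrays. The part of the clock in the Cyp3a values was not tested.

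Other CAR and PXR targets of the same hepatocytes moved upward in 3 cases. Cyp2b10 was at 7.80, 8.01 and 7.72 after water and at 13.06, 14.15 and 12.87 after phenobarbital, and its groups were far apart. The limma adjusted p of its difference of 5.52 was 0.000563. Cyp2c55 rose by 3.46 (limma adjusted p = 0.0187) and Cyp2c29, another drug-metabolising P450, by 1.49 (limma adjusted p = 0.00602). Of the 31 genes on this list 26 were measured and 22 tested, of which 3 rose, 0 fell, 21 had a positive difference and the median was 0.49. The median over all probe sets tested was −0.003, and that of the 3 tested Cyp3a members was 0.09.

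The genes that control or serve the CYP3A enzymes gave no call in hepatocytes. Of 18 tested regulators of Cyp3a transcription 0 passed in limma, with a median difference of −0.06. Nr1i2, which encodes PXR, differed by 0.21 (limma adjusted p = 0.643) and Nr1i3 by 0.01 (limma adjusted p = 0.997). Of 13 tested P450 partners and haem supply genes 0 passed, with a median of −0.02. Among them Alas1, which starts haem synthesis, had a difference of −0.57 (limma adjusted p = 0.639).

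Clock and growth hormone genes, which set the daily and sex-dependent levels of many liver P450 genes, gave no call either. Of 12 tested PAR bZIP and clock genes 0 passed in limma, with a median of 0.37. Dbp had a difference of 2.12 with a standard error of 1.33 (limma adjusted p = 0.708), with 1 water array far below the other hepatocyte arrays. Of 10 tested genes of the growth hormone axis 0 passed, with a median of −0.10. Albumin (Alb), the main plasma protein made by hepatocytes, differed by −0.02 (limma adjusted p = 0.900).

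**Figure D3:**
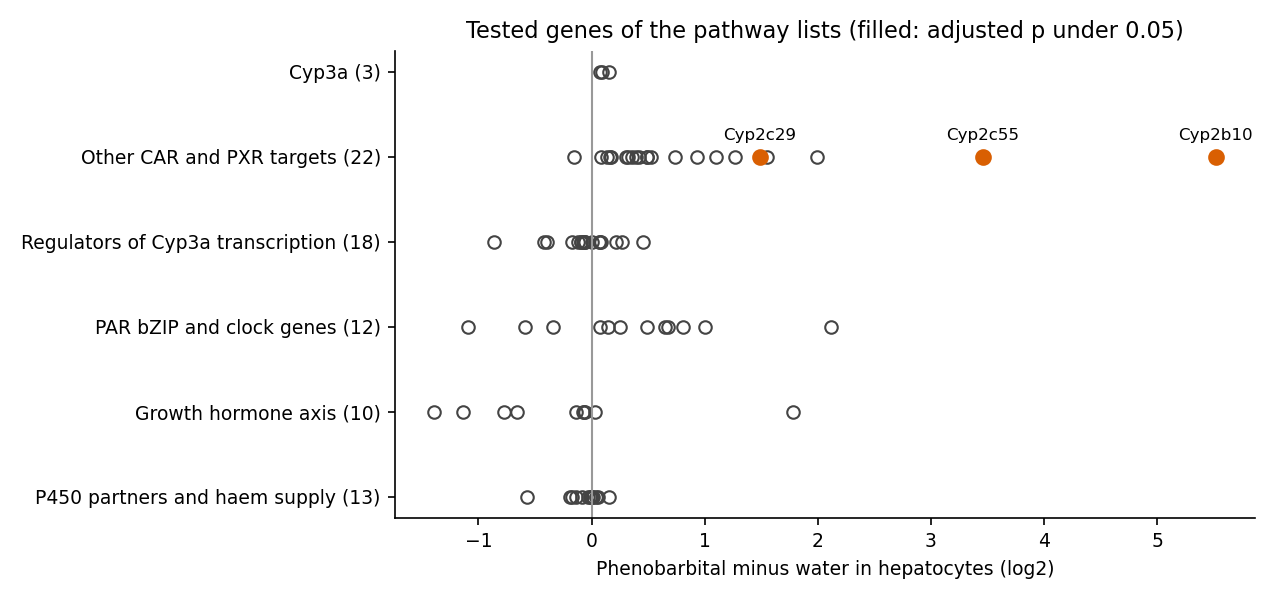
Difference between phenobarbital and water in hepatocytes (log2) for the tested genes of each list, with the number tested in brackets and filled points for an adjusted p under 0.05. The 3 Cyp3a points lie between 0.07 and 0.15, whereas Cyp2c29, Cyp2c55 and Cyp2b10 stand at 1.49, 3.46 and 5.52.

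Mesenchymal cells of water mice had lower array signals of Cyp3a11, Cyp3a25 and Cyp3a13 than hepatocytes, by 3.66, 5.50 and 5.64 on the log2 scale. Cyp3a11 and Cyp3a25, which were above the 40th percentile on all 6 mesenchymal arrays, both passed as lower in limma. Over the 15432 probe sets tested across the 12 arrays 38.9% passed as lower and 82.2% in either direction. Cyp3a13 entered this fit through its hepatocyte arrays, with 1 mesenchymal array above the 40th percentile, so it had to differ and its values are given without a test. As ratios of array signal the differences were 12.7-fold for Cyp3a11 and 45.2-fold for Cyp3a25. Because Cyp3a11 is near the top of the hepatocyte arrays, its ratio can understate the difference in RNA, and no order of the genes is read from these ratios.

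Cyp3a11 was at 10.23, 11.28 and 11.13 in the mesenchymal cells of water mice, below the lowest hepatocyte array on each. The mean was 10.88 ± 0.57 (SD, n = 3), and the difference from hepatocytes was −3.66 with a standard error of 0.54, an interval of −4.84 to −2.49 and a limma adjusted p of 5.02e-05. Cyp3a25 was at 7.31, 8.68 and 8.01, with a mean of 8.002 ± 0.683 (SD, n = 3). Both genes were lowest on the mesenchymal array numbered 1 and highest on the array numbered 2. The Cyp3a25 difference was −5.50 with a standard error of 0.44, an interval of −6.47 to −4.53 and a limma adjusted p of 2.48e-07.

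Cyp3a13 was at 5.39, 6.28 and 5.69, with a mean of 5.79 ± 0.45 (SD, n = 3), and followed the same order of arrays. Its difference from hepatocytes was −5.64. Cyp3a16 was at 3.09, 3.14 and 3.39 and overlapped the hepatocyte arrays. With all probe sets tested its difference of −0.20 had a limma adjusted p of 0.119.

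The same 3 genes were lower in mesenchymal cells after phenobarbital. Differences were −3.39 for Cyp3a11 (limma adjusted p = 9.45e-05), −4.83 for Cyp3a25 (limma adjusted p = 7.996e-07) and −5.30 for Cyp3a13, the last without a test for the same reason. Without the phenobarbital mesenchymal array numbered 1 they were −4.19, −5.45 and −5.74 in that order, and Cyp3a11 and Cyp3a25 passed. Here 39.2% of the probe sets tested passed as lower and 82.5% in either direction. Cyp3a16 differed by −0.11 with overlapping groups, at a limma adjusted p of 0.368 with all probe sets tested. The populations were made comparable only by RMA. With the mean of 8 house-keeping genes subtracted, the median over all probe sets in water mice moved from 0.06 to −0.58 and the share of higher among called probe sets from 52.6% to 29.3%, and the members' differences became −4.31, −6.14 and −6.28 for Cyp3a11, Cyp3a25 and Cyp3a13. With each array's median subtracted that share was 44.0%. Under phenobarbital the shares were 52.5%, 27.8% and 43.9% in the same order.

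Hepatocyte markers were lower as well. All 15 passed as lower in mesenchymal cells of water mice, with a median difference of −4.37 and a range from −5.78 (Asgr1, a hepatocyte lectin receptor) to −1.15 (Alb). Cyp3a13 and Cyp3a25 lay near the low end of that range and Cyp3a11 nearer its middle. In bulk samples fewer hepatocytes and less of a transcript per cell cannot be told apart, and what part of the mesenchymal Cyp3a signal came from hepatocyte RNA was not tested. Intestinal epithelium also expresses Cyp3a13, and its 4 markers had means of 5.41 to 5.95 on the mesenchymal arrays, below those of 7.10 to 7.92 on the hepatocyte arrays. On every hepatocyte array 3 of these 4 were above the 40th percentile, so the list is not particular to intestine here. No source of Cyp3a13 is read from it.

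As a share of the hepatocyte mean on the linear scale, the mesenchymal arrays of water mice numbered 1, 2 and 3 held 5.03%, 10.4% and 9.39% of Cyp3a11. For Cyp3a25 the shares were 1.37%, 3.54% and 2.23%, and for Cyp3a13 1.53%, 2.83% and 1.88%. The median hepatocyte marker was at 2.53%, 6.02% and 4.90% on these arrays. The members and the median marker were lowest on array 1 and highest on array 2. Over the 3 arrays the single markers spread from 1.08% to 56.2%. The 3 genes lay within the markers' range on each array, except Cyp3a13 on array 3, where the lowest marker was at 2.06%.

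**Figure D4:**
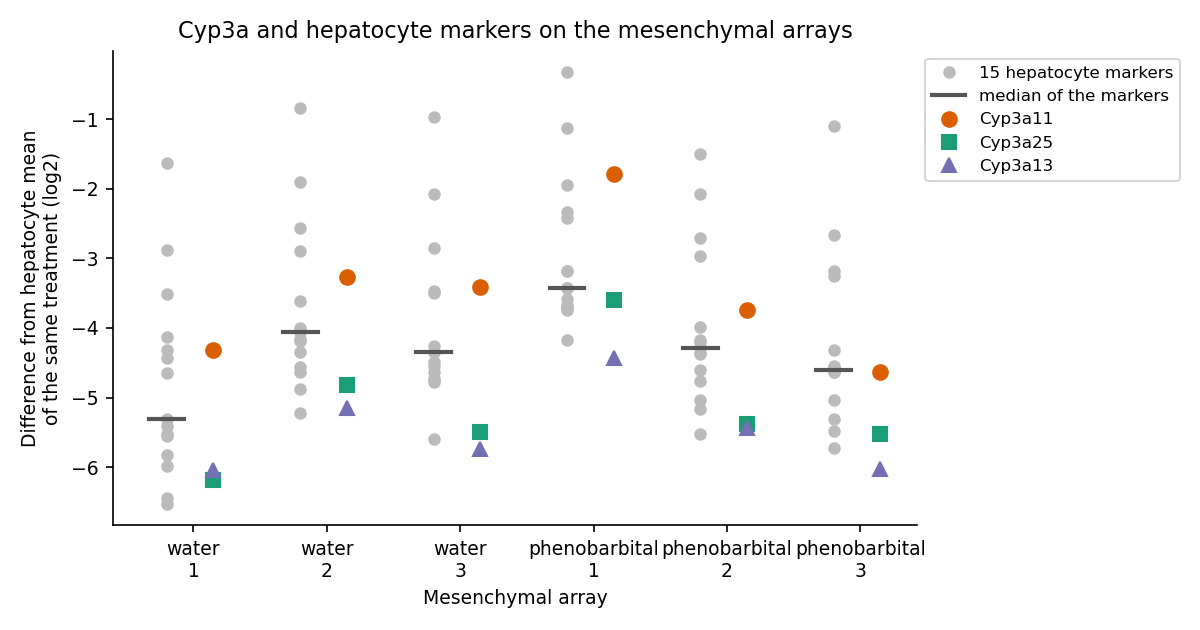
Log2 difference of Cyp3a11, Cyp3a25 and Cyp3a13 from the hepatocyte mean of the same treatment on each mesenchymal array, beside 15 hepatocyte markers (grey points) and their median (bar). The 3 members and the marker median are highest on phenobarbital array 1, where the median is −3.43 and Cyp3a11 lies at −1.79, and the median is lowest on water array 1 at −5.30.

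Most tested regulators and partners of CYP3A differed between the populations, as most probe sets did. Of 19 tested regulators 10 passed as lower and 5 as higher in water mice, beside 38.9% lower and 82.2% in either direction over all probe sets. Among the lower were Foxa3 at −5.28, Foxa1 at −4.37 and Hnf4a at −4.36, which encode transcription factors of hepatocytes. Nr1i3 differed by −4.04 and Nr1i2 by −3.78, given without a test. Both lay below the 40th percentile on every mesenchymal array, so they entered this fit through their hepatocyte arrays and had to differ. The counts of the lists include genes like these. The 5 that passed as higher were Nr2f1, Nr2f2, Nr3c1, Ncoa1 and Rxrb, with differences of 2.61, 1.94, 0.59, 0.56 and 0.32. House-keeping scaling lowers every one of these differences by the same amount as those of the members, which turns the sign of Nr3c1, Ncoa1 and Rxrb. Of 13 P450 partners and haem supply genes 10 passed as lower, with Alas1 at −3.75, Pgrmc1, a haem-binding partner of P450 enzymes, at −2.85 and Alad, the second enzyme of haem synthesis, at −2.44, and 2 passed as higher, with the haem-degrading enzyme Hmox1 at 4.21.

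Most other CAR and PXR targets were lower in mesenchymal cells as well. Of 22 tested 17 passed as lower and 2 as higher in water mice, with a median of −4.05 against 0.06 over all probe sets, and with Ugt2b34 at −5.69, Aldh1a7 at −5.67, Cyp2c37 at −5.46 and Cyp2c50 at −5.39. Cyp2b10, low in hepatocytes without phenobarbital, differed by −0.59 (limma adjusted p = 0.215). In the growth hormone axis 6 of 10 passed as lower, led by Hsd3b5 at −6.08, a steroid dehydrogenase of male liver, Elovl3 at −5.23 and the receptor Ghr at −4.62, and 2 as higher, led by Jak2 at 1.70. Of 13 PAR bZIP and clock genes 4 passed as lower, led by Nfil3 at −3.49 and Hlf at −1.90, and 1 as higher, a smaller share than over all probe sets. The water arrays numbered 1, which stood apart in clock genes such as Dbp, widen the spread of such genes in this fit. Whether this lowered the share was not tested. In mesenchymal cells alone 16 of the 22 targets, 7 of the 10 growth hormone genes and 12 of the 13 clock genes passed the filter. The others needed their hepatocyte arrays to enter this fit, which favoured a lower mesenchymal level in advance. The counts and the median include such genes, and the named genes may. All these counts stand beside the same 38.9% and 82.2%, and nothing particular to a list is read from them.

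In mesenchymal cells the Cyp3a values after phenobarbital were scattered and no member passed. Cyp3a11 was at 12.82, 10.87 and 9.99, with a mean of 11.23 ± 1.45 (SD, n = 3). The first phenobarbital array was the highest of the 6 mesenchymal arrays and the third the lowest. The difference from water was 0.35 with a standard error of 0.70, an interval of −1.31 to 2.00 and a limma adjusted p of 0.999. Of the 13642 probe sets tested in these cells 0 passed in limma (0%) and 404 had an unadjusted p under 0.05, and 0 of the 2 tested members had one.

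Cyp3a25 was at 9.99, 8.22 and 8.06 after phenobarbital, with a mean of 8.76 ± 1.07 (SD, n = 3). Again the first array stood above the others, which lay within the water group's range. The difference was 0.76 with a standard error of 0.57, an interval of −0.60 to 2.11 and a limma adjusted p of 0.999. Cyp3a13 was at 7.15, 6.13 and 5.55, with a mean of 6.28 ± 0.81 (SD, n = 3), and did not pass the filter on low values in these cells. Its groups overlapped, with a difference of 0.49, and with all probe sets tested the limma adjusted p was 0.9997. Cyp3a16 was at 3.14, 3.09 and 3.25 and differed by −0.05.

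The first phenobarbital array carried the most hepatocyte marker signal of the 6 mesenchymal arrays. The marker mean was 10.94 there, against 9.89 and 9.62 on the other phenobarbital arrays and 9.13, 10.22 and 9.99 on the water arrays, and 14 of the 15 markers were highest there. Without that array the difference was −0.45 for Cyp3a11 and 0.14 for Cyp3a25. With the marker mean of each array subtracted, an alternative chosen after seeing the data, the differences were −0.02 (limma adjusted p = 0.974) for Cyp3a11 and 0.39 (limma adjusted p = 0.794) for Cyp3a25. On the linear scale the 3 phenobarbital arrays held 28.9%, 7.45% and 4.04% of the hepatocyte mean of Cyp3a11, beside 9.27%, 5.14% and 4.09% for the median marker. For Cyp3a25 the shares were 8.27%, 2.41% and 2.17%, and for Cyp3a13 4.65%, 2.30% and 1.53%. The part of hepatocyte RNA in these values was not tested.

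Relative to the marker mean, Cyp3a11 varied more after phenobarbital than after water. Its log2 level minus the marker mean was 1.10, 1.06 and 1.15 on the water arrays and 1.89, 0.98 and 0.36 on the phenobarbital arrays. Cyp3a25 gave −1.82, −1.54 and −1.97 on the water arrays and −0.94, −1.67 and −1.56 on the phenobarbital arrays. Cyp3a13 ran from −4.30 to −3.74 after water and from −4.08 to −3.75 after phenobarbital. The first phenobarbital array was thus above the others for Cyp3a11 and Cyp3a25 also on this scale, and within the water range for Cyp3a13.

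The other CAR and PXR targets gave no call in mesenchymal cells, with 0 of 16 tested past the threshold in limma, 13 positive differences and a median of 0.72. Cyp2b10 was at 7.18, 7.40 and 7.19 after water and at 9.39, 7.82 and 7.57 after phenobarbital, highest on the same first array. The 15 hepatocyte markers had 14 positive differences and a median of 0.52 in this comparison, against 0.003 over all probe sets.

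The treatment effects of the populations were not shown to differ for any member. The hepatocyte effect minus the mesenchymal effect was −0.27 for Cyp3a11 (interval −1.94 to 1.39, limma adjusted p = 0.987), −0.67 for Cyp3a25 (interval −2.04 to 0.71, limma adjusted p = 0.977) and −0.34 for Cyp3a13 (interval −1.39 to 0.72, limma adjusted p = 0.978). In limma 0 of 3 members passed, 0 of 15432 probe sets passed (0%) and 772 had an unadjusted p under 0.05. Mesenchymal arrays spread far more than hepatocyte arrays: over the 6 mesenchymal arrays Cyp3a11 ranged by 2.84, Cyp3a25 by 2.68 and Cyp3a13 by 1.76, against 0.14, 0.33 and 0.57 over the 6 hepatocyte arrays. This fit gives both populations the same variance. Without the first mesenchymal phenobarbital array the difference of effects was 0.52 for Cyp3a11, −0.05 for Cyp3a25 and 0.10 for Cyp3a13, and none passed.

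**Figure D5:**
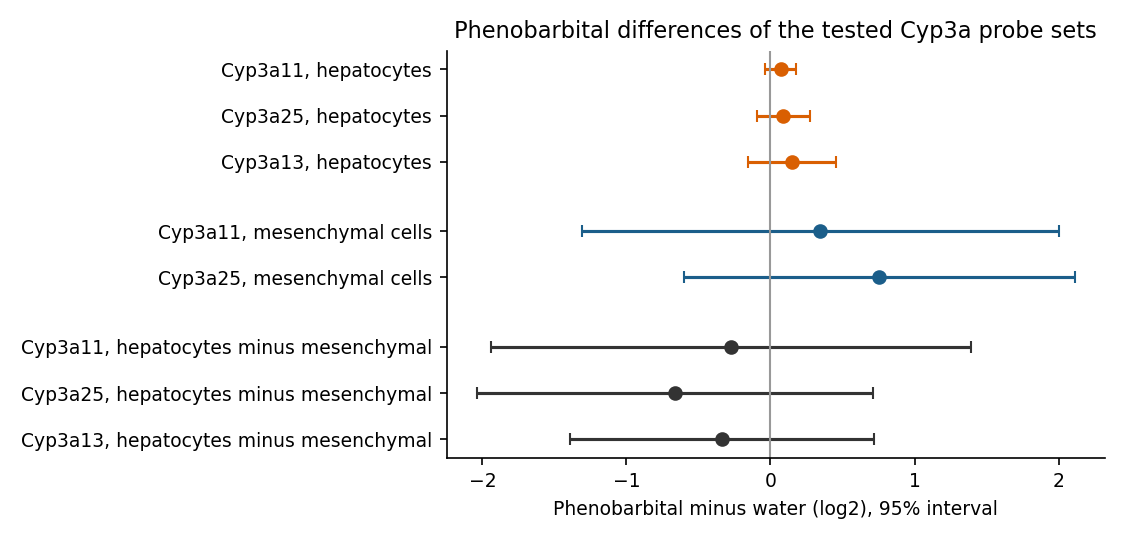
Phenobarbital minus water (log2) of the tested Cyp3a probe sets in hepatocytes, in mesenchymal cells and as the difference of these effects, as points with 95% intervals from limma. All 8 intervals include 0, and those of hepatocytes, such as −0.04 to 0.18 for Cyp3a11, are far narrower than those of mesenchymal cells, such as −1.31 to 2.00.

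Along chromosome 5, the RefSeq table of GRCm38.p6 places Cyp3a13 apart from the other members, which lie in 1 cluster with Cyp3a11 and Cyp3a25 next to each other. The nearest tested genes around the members, 3 on each side and Cyp3a genes set aside, came to 12. None of the 10 tested in hepatocytes passed for phenobarbital. Between the populations in water mice 6 passed as lower and 3 as higher, near the 82.2% of all probe sets that passed in either direction. Near Cyp3a13, Pilrb1 (6.29) and Pilra (6.09), which encode immunoglobulin-like receptors of myeloid cells, were higher in mesenchymal cells, while Azgp1 (−4.91), a secreted protein of the liver, was lower. Pilrb1 and Pilra did not pass the filter in hepatocytes and entered through their mesenchymal arrays. They had to differ, and the count of higher genes includes them. Beyond the Cyp3a cluster, Rnf6 differed by 0.02 (limma adjusted p = 0.879).

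The genes most like each member were taken by Pearson correlation over the 12 arrays, as a description. The closest were Mgst1 (0.996), Apoa2 (0.995) and Fabp1 (0.995) for Cyp3a11. For Cyp3a25 they were Rdh7, Ugt2b34 and Mtarc1 (0.999 each), and for Cyp3a13 Otc, Mbl2 and Glyat (0.999 each). These arrays form 2 clusters, the populations, so any gene with a high hepatocyte and a low mesenchymal level correlates with any other. Among themselves Cyp3a11, Cyp3a25 and Cyp3a13 had coefficients of 0.976 to 0.995 over the 12 arrays, and Cyp3a16 had 0.458 to 0.490 with them. The genes closest to Cyp3a16 were Abca3 (0.915), Gtf3c1 (0.912) and Lbp (0.888).

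Within the 6 hepatocyte arrays the members moved together less closely. The coefficient was 0.630 for Cyp3a11 with Cyp3a25, 0.383 for Cyp3a11 with Cyp3a13 and 0.203 for Cyp3a25 with Cyp3a13. Cyp3a16 gave −0.653 with Cyp3a11, −0.683 with Cyp3a25 and 0.180 with Cyp3a13. The closest genes were Setd4 (0.985), Cdadc1 (0.983) and Cep57l1 (0.977) for Cyp3a11 and Zfand2b (0.979), Cbr4 (0.976) and Trib3 (0.973) for Cyp3a25. They were Nr5a1 (0.991), Snx21 (0.988) and Rngtt (0.988) for Cyp3a13 and Cxadr (0.997), Cstf3 (0.996) and Pnpla6 (0.993) for Cyp3a16. None of these is among the closest over the 12 arrays. The coefficients describe 6 arrays whose Cyp3a11 values span 0.14. The highest of a large number of coefficients over so few arrays is close to 1 for many patterns.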

How the data were processed

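Total RNA of the cells was amplified and biotin-labelled with an Affymetrix 3′ kit, per the labels' protocols. Values are the authors' deposited log2 expression, with RMA named in the submitters' processing notes. No batch was tested, since scan dates, like the RMA version, were not given in the sources used here. RMA sets the probe intensities of arrays to 1 distribution, so a shift of most genes can be removed. Precision is limited by the number of arrays. Of 22626 probe sets, 20380 had 1 symbol, 691 several and 1555 none. Of the first, 20351 matched RefSeq through their Entrez number, and no symbol changed.

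Tests used limma 3.58.1 in R 4.3.3 (lmFit, eBayes with an intensity trend) with Benjamini-Hochberg adjustment over all probe sets above the 40th percentile in at least 3 arrays of the fit. A probe set passed at an adjusted p under 0.05. Phenobarbital was tested on the 6 arrays of a population, the other contrasts on 12 arrays. The code was tested on simulated data. Alternatives varied the scaling, the filter, the choice of probe sets, the moderation, the arrays fitted or left out and the block. The members and lists were chosen with earlier results of these data known. Besides the members, the text names the 3 genes most correlated with each, up to 4 passing genes of a list by size, 6 genes fixed by name and up to 4 neighbours. The 5 regulators that passed as higher were added after their values were seen. Promoters were aligned with Biopython 1.88 (match 1, mismatch −1, gap opening −2, gap extension −0.5).

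Replicate numbers were checked by correlating deviations from the group means between samples of the same number. Hepatocytes and mesenchymal cells of water mice gave 0.224, 0.205 and 0.180, each the highest with its own number. These numbers may pair samples, a reading from the data alone that the labels do not state. Hepatocytes and mesenchymal cells of phenobarbital mice gave −0.06 to 0.06, and water and phenobarbital samples −0.26 to 0.17.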

Additional observations from a re-analysis of the deposited data

How the results depend on the processing

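The number of Cyp3a members passing in a comparison changed under none of its 15 to 22 alternatives, 85 summed over the comparisons. It was 0 for phenobarbital in either population and for the difference of effects. Between the populations it was 3 under either treatment, where Cyp3a13 entered through its hepatocyte arrays. In the fits of 1 population, leaving out both water arrays numbered 1 leaves out 1 array and repeats another alternative. With the replicate number as a block on the 6 arrays compared, the limma adjusted p of Cyp3a11 between the populations was 6.06e-05 in water mice and 0.00151 under phenobarbital, and the block changed no call. Of the member differences under alternatives, 236 were unchanged and 8 changed sign, none of the latter called. Unchanged means the same sign and side of the threshold. Alternatives of the filter, the choice of probe sets, the moderation and the block leave the difference as it was, so there only the call could change. For a member without a main test unchanged means a move of less than the pooled SD of the groups. That was fixed in advance, because its alternatives take the same difference of group means. The count of unchanged differences is therefore not read as a measure of stability. For phenobarbital in mesenchymal cells, Cyp3a11 ranged from −0.45 to 0.97 with 1 array left out and was −0.024 with the hepatocyte marker mean subtracted. For the difference of effects, Cyp3a11 ranged from −0.89 to 0.52 with 1 array left out and was 0.028 without both water arrays numbered 1 and 0.17 with the marker mean subtracted. Cyp3a13 ranged from −0.70 to 0.10 and was 0.11 with the marker mean subtracted. The population differences kept their sign, and those of Cyp3a11 and Cyp3a25 kept their call. No call is read for Cyp3a13, which entered through its hepatocyte arrays. With 1 array left out the differences in water mice ran from −3.86 to −3.34 for Cyp3a11, −5.84 to −5.15 for Cyp3a25 and −5.89 to −5.44 for Cyp3a13. Under phenobarbital they ran from −4.19 to −2.77, −5.45 to −4.48 and −5.74 to −4.94 in the same order. Over all probe sets, 8 passed for phenobarbital in hepatocytes and 1 to 13 under alternatives. Between the populations 12680 passed in water mice and 7470 to 17136 under alternatives, which change how many are tested, and 12736 and 7503 to 17598 under phenobarbital. For the difference of effects 0 passed and 0 to 5 under alternatives. Cyp3a16 lay at the floor of every array, which limits what its values can show, and Cyp3a13 was above the 40th percentile on 1 mesenchymal array.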
